A study of Mus musculus with 30 samples.

Results

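The comparison described here is that of haematopoietic stem cells (HSCs), the bone marrow cells that renew all blood lineages, from mice labelled bowel germ-free and from wild type mice, both aged 2 months. It was made up of all libraries with those labels, 3 germ-free and 4 wild type, which are 7 of the 30 libraries of the series. The series title names interleukin-1, the microbiome and HSC ageing as its subject. Each library came from 4000 to 5000 sorted cells, and the germ-free and wild type groups carried no stated genetic change. The labels name neither strain nor sex, nor the markers of the sort, nor whether cells of several mice were pooled. Values of 3 libraries labelled IL1R1 KO at 2 months, and of 2 germ-free and 5 wild type libraries at 1 year, are given beside the main comparison where they help to read it.

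Germ-free animals are raised without resident microbes, so their tissues lack the steady supply of bacterial cell wall fragments and metabolites that reaches the marrow of other mice. Toll-like and NOD receptors detect such fragments and act through adaptors to NF-kB and interferon genes, and HSCs carry several of these receptors. Marrow HSCs also respond to circulating hormones, among them glucocorticoids, and are held in their niche through the chemokine receptor Cxcr4.

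The values were normalized counts per gene, and 16958 genes that reached 10 in 3 or more libraries of the series were tested with limma on log2(normalized count + 1). A gene is said to have risen or fallen in germ-free HSCs where its Benjamini-Hochberg adjusted p was below 0.05, and differences are germ-free minus wild type on that log2 scale, which understates the change of genes with low values. Depth, estimated from the value of 1 read, was 24.9 to 32.1 M reads in the germ-free and 20.0 to 29.5 M in the wild type libraries. The model took in all 30 libraries of the series in 8 groups, which share 1 estimate of the spread. No label says that replicates are separate animals, so p-values speak to the spread among those libraries alone, which may be technical. HSC markers were high in all 7 libraries. Kit, the stem cell factor receptor, ranged from 18562 to 21336 in germ-free and from 17764 to 20250 in wild type libraries, and Procr, the protein C receptor, from 3210 to 4480 and from 3851 to 4009. Primary granule markers of myeloid progenitors divided the libraries within both groups. Mpo, the granule enzyme myeloperoxidase, was at 56547, 4.33 and 35472 in germ-free replicates 1 to 3 and at 392, 73276, 1159 and 60867 in wild type replicates 1 to 4. Mpo exceeded 10000 in 6 libraries aged 2 months (2 germ-free, 2 wild type and 2 labelled IL1R1 KO), and without them 1 germ-free library remained against 2 wild type ones. A fit without those 6 libraries was added after the values were seen, and in it the lone germ-free library is assumed to vary like the other groups.

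In germ-free HSCs at 2 months, 51 genes rose and 51 fell, together 102 of 16958, or 0.601% of the genes tested and 0.301% in each direction. The median absolute difference of the 102 was 1.29, against 0.21 over all genes tested, and 64 of them differed by more than 1. The values of all 3 germ-free libraries lay on one side of all 4 wild type values for 96 of the 102, and for 7.63% of all genes tested. Of the 102 genes, 93 were protein coding. With only the 7 libraries in the fit the count was 37 (25 higher and 12 lower), and without the high-Mpo libraries it was 173 (29 higher and 144 lower), of which 30 were among the 102. Leaving out 1 of the 7 libraries in turn gave 67 to 109, and without germ-free replicate 3 it was 67. Of the 51 genes past the test that are named here, 33 lost their calls without the high-Mpo libraries, 27 with only the 7 libraries in the fit and 21 with only the libraries aged 2 months. The 51 leave out Hist1h4i, Serpina3g, Ddx43, AC149090.1 and Ier5l, also past the test and named below, whose calls in these fits are not given. For the 51, calls lost in these fits are given where the values of a gene are described.

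A few genes that glucocorticoids induce rose in germ-free HSCs. Of 16 measured members of a list of such genes, 4 rose and none fell, against 0.301% of all genes in each direction. Wholly above the wild type libraries lay 4, against 3.89% of all genes tested. The median difference was 0.48, against 0.00060 over all genes. The mean log2 level of the list overlapped between the groups, at 11.04, 11.36 and 10.93 in germ-free and 10.64, 10.28, 11.01 and 10.02 in wild type libraries. Members of this list and of those below were chosen with earlier results of these data known, so their counts do not serve as a test. Tsc22d3 encodes GILZ, a leucine zipper protein that carries part of the anti-inflammatory action of glucocorticoids. It stood at 33816, 29716 and 26719 normalized counts in the germ-free libraries and at 15030, 10000, 14476 and 9884 in the wild type ones. The lowest germ-free value lay above the highest wild type value, and the difference was 1.31 ± 0.22 (SE, adjusted p = 0.00114). Fkbp5 encodes a co-chaperone of the glucocorticoid receptor. It was at 1969, 1692 and 1465 in germ-free and at 1038, 804, 847 and 690 in wild type libraries, again without overlap. Its difference was 1.02 ± 0.21 (adjusted p = 0.0138), and the call was lost without germ-free replicate 1 (adjusted p = 0.0826), without germ-free replicate 2 (0.0546) or without wild type replicate 4 (0.0591). Pik3ip1, an inhibitor of phosphatidylinositol 3-kinase, was at 16268, 13999 and 13561 against 8713, 8832, 8420 and 7735. Its spread within each group was small, and the difference was 0.79 ± 0.10 (adjusted p = 3.35e-05). Zbtb16 encodes the zinc finger factor PLZF, which acts in stem and innate lymphoid cells. It was at 604, 1489 and 1054 against 416, 114, 223 and 175, a difference of 2.24 ± 0.43 (adjusted p = 0.00614), and the call was lost without germ-free replicate 2 (adjusted p = 0.0706).

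The other 12 members of that list did not pass the test. Per1, a clock gene with glucocorticoid control, was at 6508, 8433 and 5326 in germ-free and 4019, 2027, 7430 and 2308 in wild type libraries, which overlapped. Klf9, a Krüppel-like factor, was at 2878, 4979 and 2299 against 1786, 1405, 2480 and 1614, also with overlap. Ddit4, a stress-induced inhibitor of mTOR signalling, and Il1r2, the decoy interleukin-1 receptor, had differences of 0.66 ± 0.29 and 2.29 ± 0.92 and also overlapped (adjusted p = 0.443 and 0.390). Dusp1, Cdkn1a, Cebpd, Mt1, Mt2, Sgk1, Txnip and Nfkbia had differences between -0.33 and 0.31. All but Nfkbia of these 12 are named after their values were seen. In the libraries labelled IL1R1 KO at 2 months, the means were 11709 ± 1445 (SD, n = 3) for Tsc22d3, 703 ± 82.8 for Fkbp5, 7839 ± 400 for Pik3ip1 and 192 ± 32.8 for Zbtb16. Without the high-Mpo libraries 1 of the 16 genes, Pik3ip1, rose and the list median was 0.55. Fkbp5 and Zbtb16 also lost their calls with only the 7 libraries in the fit, and Zbtb16 with only those aged 2 months. Without germ-free replicate 2, 2 rose.

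**Figure D1:**
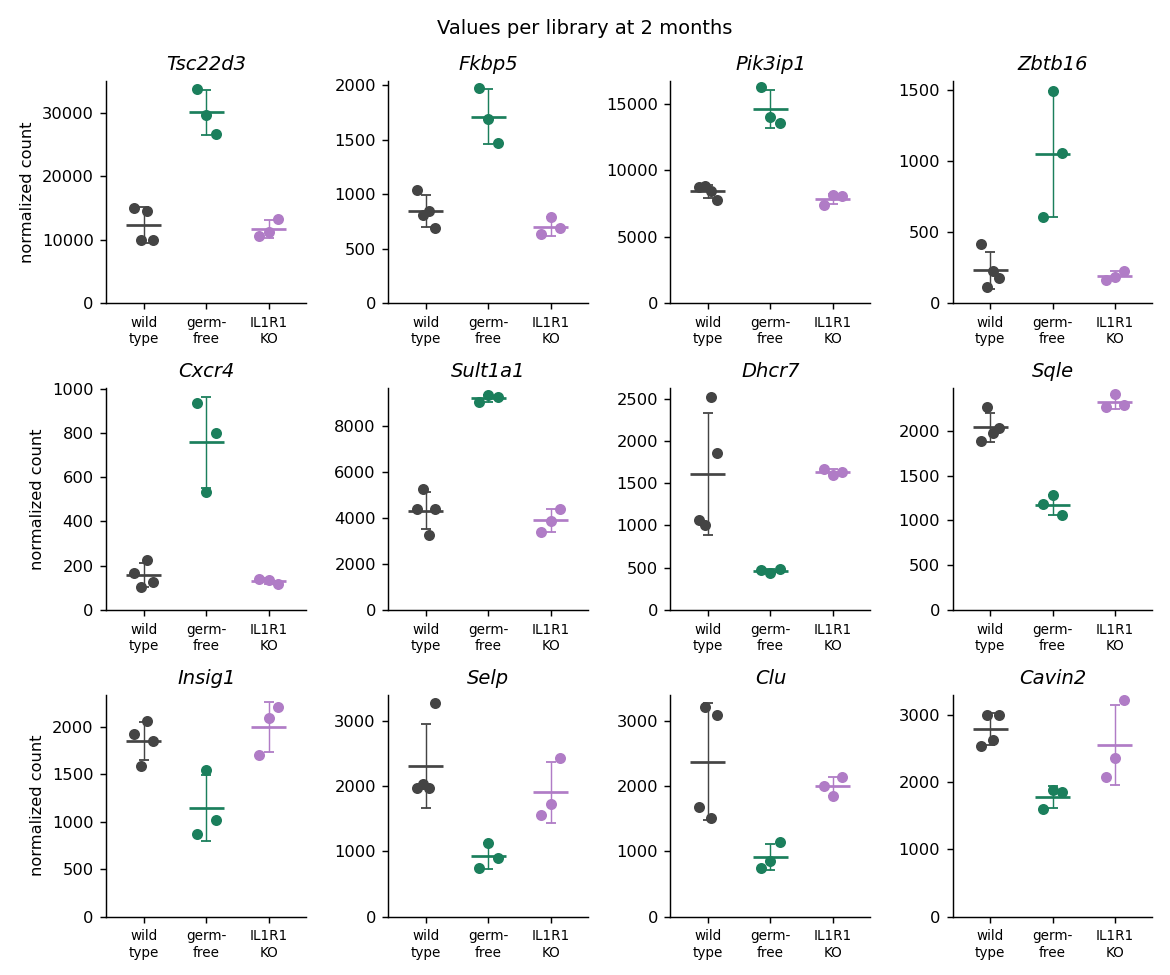
Normalized counts (vertical axes, each starting at 0) of 12 genes in every library aged 2 months, by group: 4 wild type, 3 germ-free and 3 labelled IL1R1 KO. Points are libraries, long bars are means and thin bars are ± 1 SD. The germ-free points of the first 6 genes lie above all wild type points and those of the other 6 lie below them.

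Cxcr4, the receptor that holds HSCs in the marrow niche through the chemokine Cxcl12, rose in all 3 germ-free libraries. It was at 935, 534 and 801 in germ-free and at 168, 106, 227 and 127 in wild type libraries. The lowest germ-free value was above the highest wild type value, the ratio of the means was 4.82, and the difference was 2.28 ± 0.34 (adjusted p = 2.12e-04). The gene lies at chr1:128588199-128592293 (GRCm38, minus strand). Its call held without each of the 7 libraries, with an adjusted p of at most 0.00461, and was lost without the high-Mpo libraries, where the difference was 1.45. The mean was 130 ± 13.2 (SD, n = 3) in the libraries labelled IL1R1 KO.

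Other large rises were spread over unrelated functions. Cdk5rap1, a mitochondrial tRNA-modifying enzyme, was at 1345, 3315 and 1717 against 508, 447, 487 and 488, and the wild type libraries differed little from each other (2.03 ± 0.29, adjusted p = 1.26e-04). Gpr137b, a lysosomal membrane protein, was at 1075, 1790 and 1287 against 348, 328, 630 and 409 (1.71 ± 0.22, adjusted p = 4.24e-05). Those 2 calls held without each library in turn, without the high-Mpo libraries, with only the 7 libraries and with only those aged 2 months. Adam33, a membrane metalloprotease, was at 40.1, 41.2 and 73.0 against 0, 1.61, 0 and 0.60. It was near the detection limit in wild type HSCs, and its call (adjusted p = 0.0408) was lost without any 1 of the 7 libraries, with adjusted p-values of 0.0580 (without wild type replicate 2) to 0.164 (without germ-free replicate 3).

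Mid1, a microtubule-bound ubiquitin ligase, was at 1440, 2830 and 1875 against 523, 388, 848 and 359 (1.98 ± 0.41, adjusted p = 0.0138). Its call was lost without germ-free replicate 2 (0.111) or 3 (0.0529), or wild type replicate 2 (0.0514) or 4 (0.0591). Hif3a, an inhibitory relative of the hypoxia factors, was at 1250, 1657 and 1044 against 419, 399, 476 and 214 (1.84 ± 0.43, adjusted p = 0.0364). It lost its call without any library but wild type replicate 3, with adjusted p-values of 0.0528 (without wild type replicate 1) to 0.173 (without germ-free replicate 2). Another 3 genes lost their calls without 1 library. Cep85, a centrosome protein, was at 8177, 6090 and 7976 against 2585, 2884, 2359 and 2675 (1.49 ± 0.29, adjusted p = 0.00821, and 0.0559 without germ-free replicate 3). Serpinb8, an intracellular protease inhibitor, was at 1167, 936 and 897 against 503, 385, 521 and 155 (1.49 ± 0.30, adjusted p = 0.00951, and 0.0577 without germ-free replicate 1). Serpina3f was at 3427, 2699 and 4260 against 1281, 1014, 896 and 933 (1.74 ± 0.33, adjusted p = 0.00573, and 0.0575 without germ-free replicate 3). It belongs to a cluster of near-identical serpins that can share reads, so its value is uncertain. Without the high-Mpo libraries, Adam33 and all 5 genes of this paragraph lost their calls, and with only the 7 libraries in the fit Mid1, Hif3a and Serpinb8 did. Serpinb8 lost its call also with only the libraries aged 2 months.

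A few genes of sterol synthesis fell in germ-free HSCs. Of 24 measured members, 3 fell and none rose, against 0.301% of all genes in each direction. Differences were below 0 for 21, against 8402 of all 16958 genes. Wholly below the wild type libraries lay 8, against 3.74% of all genes tested, and the median difference was -0.33. The mean log2 level of the list was 9.59, 9.47 and 9.20 in germ-free and 9.85, 9.91, 10.06 and 9.88 in wild type libraries, which did not overlap. Dhcr7 encodes the reductase of the last step of cholesterol synthesis (chr7:143823145-143848410, GRCm38). It was at 471, 439 and 487 in germ-free and at 1064, 999, 2522 and 1859 in wild type libraries. The germ-free libraries were close together and all below the lowest wild type value, and the difference was -1.68 ± 0.23 (adjusted p = 7.0e-05). Sqle, squalene epoxidase, was at 1188, 1281 and 1057 against 1886, 2269, 1979 and 2029, a difference of -0.80 ± 0.16 (adjusted p = 0.0120) whose call was lost without germ-free replicate 3 (0.0852). Insig1 encodes the membrane protein that retains the sterol-regulated factors in the endoplasmic reticulum. It was at 876, 1541 and 1017 against 1921, 1586, 2061 and 1856, with germ-free replicate 2 close to the lowest wild type library. Its difference was -0.73 ± 0.16 (adjusted p = 0.0288), and the call was lost without germ-free replicate 1 (0.192) or 3 (0.148), or wild type replicate 1 (0.0643), 3 (0.0756) or 4 (0.0654).

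Other members of the list did not pass the test and are named after their values were seen. Msmo1, a C4-methylsterol oxidase, was at 821, 516 and 597 against 1390, 1085, 1056 and 1346, wholly below the wild type range (-0.93 ± 0.23, adjusted p = 0.0549). Idi1 and Hmgcs1, enzymes of the mevalonate branch, had differences of -0.50 ± 0.20 (adjusted p = 0.388) and -0.46 ± 0.22 (adjusted p = 0.505). In the libraries labelled IL1R1 KO at 2 months, the means were 1636 ± 35.4 (SD, n = 3) for Dhcr7, 2324 ± 78.6 for Sqle and 2003 ± 264 for Insig1. The count of 3 was 1 (Dhcr7) without the high-Mpo libraries, 1 without germ-free replicate 3, and 0 with only the 7 libraries in the fit, while the median was -0.40, -0.36 and -0.33.

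The promoters of the sterol genes are shown because they share a sequence feature that the choice of members did not use. RefSeq promoter windows (GRCm38.p6) were found for 16 genes of the list, and the 250 bases before the start were searched on both strands for the CCAAT box, the binding sequence of the factor NF-Y, written CCAAT or, on the other strand, ATTGG. All 16 genes had a match in a window, against 37.5% of 27025 genes with windows, and 16 of their 19 windows had one, against 33.8% of 32851 windows. Dhcr7 had 3 windows, of which 1 matched. The matches of Dhcr7, Msmo1 and Idi1 printed below lie inside the annotated genes, downstream of their outermost starts. Of the 3 genes that fell, Sqle was not among those with a window. Since all 16 genes matched, the match does not separate Dhcr7 and Insig1, which fell, from members that did not pass. The match nearest the start of Dhcr7, Insig1, Msmo1, Idi1 and Hmgcs1 is printed with up to 12 bases on either side, 5′ to 3′ on the strand of the gene, with the box in capitals.

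Dhcr7: aatccacttccgATTGGtcgtctgtgacc
Insig1: cgccctcctcccATTGGctccggcggcct
Msmo1: gagtggggcggaCCAATtacgacaggcga
Idi1: gtccaaggtgccATTGGctggcgacc
Hmgcs1: tccccgcctctcATTGGctgaaagcggat

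These stretches lie at chr7:143830153-143830181 (plus strand), chr5:28071184-28071212 (plus), chr8:64733617-64733645 (minus), chr13:8885580-8885605 (plus) and chr13:119690294-119690322 (plus). Their boxes end 44, 211, 50, 9 and 40 bases before the RefSeq start of the window. A sterol response sequence, TCACNCCAC, matched in 1 of the 16 genes, Hmgcs1, against 1.22% of all genes with windows. A glucocorticoid receptor element was searched as well. It matched in 3 of 14 genes of the glucocorticoid list with windows, against 0.44% of all genes with windows. Those 3 were Sgk1, Mt1 and Txnip, which did not pass the test. No match was found for Tsc22d3, Fkbp5 or Pik3ip1, which rose, and Zbtb16, which also rose, had no window. The NF-Y box matched in 6 of those 14 genes and in 13 of 23 genes of the ageing list. The motifs were chosen after the values were seen, and a match describes the letters in a window, not a bound site.

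Several genes that mark aged HSCs differed in these young animals, in both directions. Of 29 measured members of a list of the ageing signature, 2 rose and 5 fell, against 0.301% of all genes in each direction. The mean log2 level of the list overlapped, at 9.396, 8.995 and 9.285 in germ-free and 9.635, 9.497, 9.423 and 9.345 in wild type libraries. Wholly below the wild type libraries lay 8 members, against 3.74% of all genes, and 3 lay above them, against 3.89%, and the median difference was -0.23. Sult1a1, a sulfotransferase, was at 9066, 9349 and 9273 in germ-free and at 4395, 5261, 3278 and 4388 in wild type libraries. The germ-free values differed little from each other, and the difference was 1.11 ± 0.12 (adjusted p = 2.34e-06). Selp, the adhesion receptor P-selectin, was at 743, 1135 and 902 against 1968, 2038, 1973 and 3275 (-1.30 ± 0.18, adjusted p = 7.0e-05). Clu, the secreted chaperone clusterin, was at 746, 849 and 1139 against 1682, 3206, 1511 and 3082 (-1.32 ± 0.24, adjusted p = 0.00282). Those 3 calls held without each of the 7 libraries in turn. The calls of Selp and Clu were lost without the high-Mpo libraries and with only the 7 libraries in the fit, and that of Clu with only those aged 2 months. Cavin2, a coat protein of caveolae, was at 1597, 1885 and 1853 against 2541, 2998, 2625 and 2999 (-0.65 ± 0.12, adjusted p = 0.00614), and its call was lost without germ-free replicate 1 (0.0525) and in each of those 3 fits.

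Osmr, the oncostatin M receptor, was low and overlapped, at 23.5, 0 and 13.7 against 65.4, 21.5, 58.0 and 34.1 (-2.56 ± 0.60, adjusted p = 0.0393). Its call was lost without germ-free replicate 2 (0.253) or wild type replicate 1 (0.107), 3 (0.0951) or 4 (0.0686). The list's other 2 calls, named after their values were seen, were Nupr1, a stress-induced chromatin protein, and Itgb3, integrin beta 3. Nupr1 fell (787, 380 and 743 against 1325, 1455, 1282 and 936) with a difference of -1.03 ± 0.20 (adjusted p = 0.00637, and 0.109 without germ-free replicate 2). Itgb3 rose (2120, 2322 and 2964 against 1566, 1273, 1696 and 1306) with a difference of 0.75 ± 0.15 (adjusted p = 0.00750, and 0.0969 without germ-free replicate 3). The list held 1 rise (Sult1a1) and 2 falls (Osmr and Nupr1) without the high-Mpo libraries. With only the 7 libraries in the fit, or with the IL1R1 KO library of contradictory age labels placed at 2 months, it held 1 rise and no fall, and with only the libraries aged 2 months 1 rise and 1 fall.

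Platelet and megakaryocyte genes are also expressed by stem cells biased to that lineage. Of 21 members of this list, 2 fell and none rose, against 0.301% of all genes in each direction. Itgb3, which rose, was not on it. Differences of the members ran from -1.67 to 2.85, with a median of -0.22. Their mean log2 level overlapped, at 9.14, 9.67 and 9.49 in germ-free and 9.79, 9.25, 9.76 and 9.30 in wild type libraries. Of the members, 5 lay wholly below the wild type range, against 3.74% of all genes. Both falls, Selp and Plek, belong to stored or signalling proteins of platelets. Plek, pleckstrin, was at 605, 752 and 974 against 2532, 1194, 2422 and 1578 (-1.27 ± 0.25, adjusted p = 0.00771, and 0.0625 without germ-free replicate 1). Both calls were lost with only the 7 libraries in the fit, that of Plek also with only the libraries aged 2 months, and that of Selp without the high-Mpo libraries. Vwf, von Willebrand factor, lay wholly below the wild type range, at 3234, 2845 and 3156 against 4595, 4733, 3757 and 5623, without passing the test (-0.59 ± 0.17, adjusted p = 0.139). It is named after its values were seen. In bulk libraries such as these, fewer cells of a type and less RNA per cell cannot be told apart.

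**Figure D2:**
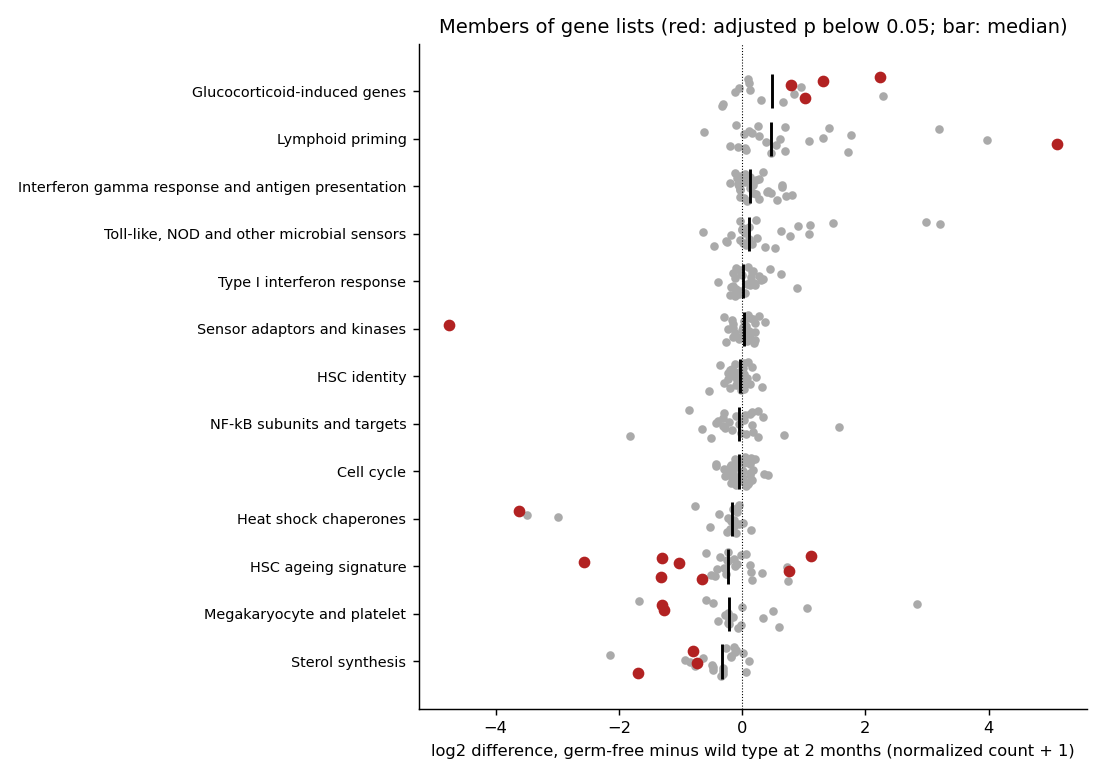
Log2 differences (germ-free minus wild type at 2 months, horizontal axis) of the measured members of 13 gene lists (rows). Points are genes, red points passed the test and black bars are medians. The glucocorticoid row holds 4 red points to the right of 0, the sterol row 3 to the left, and the microbial sensor, interferon, NF-kB, cell cycle and HSC identity rows hold none.

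The largest falls included genes at or near 0 in germ-free libraries. Rbpjl encodes a relative of the Notch effector Rbpj. It was at 3.50, 0.671 and 0 in germ-free and at 25.4, 81.0, 90.0 and 82.5 in wild type libraries, so wild type replicate 1 was also low (-5.02 ± 0.58, adjusted p = 5.09e-06). Akr1c19, an aldo-keto reductase, was at 21.7, 19.4 and 65.1 against 265, 262, 222 and 236 (-2.98 ± 0.33, adjusted p = 2.79e-06). Exoc3l4 was at 45.6, 105 and 83.8 against 288, 243, 190 and 291 (-1.74 ± 0.25, adjusted p = 1.50e-04), and Lrmda at 185, 149 and 80.4 against 326, 353, 455 and 520 (-1.63 ± 0.26, adjusted p = 5.47e-04). None of these 4 groups of values overlapped, and the 4 calls held without each of the 7 libraries in turn. Exoc3l4 and Lrmda lost their calls without the high-Mpo libraries, with only the 7 libraries and with only those aged 2 months, and Rbpjl with only those aged 2 months. Sarm1, a TIR domain protein that cleaves NAD+ and belongs to the adaptor family of Toll-like receptors, was listed at 0 in all 3 germ-free libraries and at 42.5, 35.7, 13.9 and 21 in wild type ones (adjusted p = 1.19e-04). Afm, a vitamin E-binding plasma protein, was also listed at 0 in the germ-free libraries, against 13.9, 50.4, 32.7 and 38.2 (adjusted p = 7.05e-04). It is named after its values were seen, since its means were below 50. Sarm1 and Afm lost their calls without the high-Mpo libraries, and Sarm1 with only the 7 libraries in the fit.

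The remaining falls of the named set rested on fewer libraries. Pak6, a p21-activated kinase, was at 18.1, 88.1 and 56.9 against 169, 203, 214 and 238 (-2.15 ± 0.41, adjusted p = 0.00573, and 0.0744 without germ-free replicate 1). Apc2, a relative of the Wnt regulator Apc, was at 120, 6.09 and 107 against 277, 361, 130 and 352 (-2.53 ± 0.58, adjusted p = 0.0332). Its call was lost without germ-free replicate 2 (0.223) or wild type replicate 1 (0.0675), 2 (0.0900) or 4 (0.0986). The heparin-binding growth factor Mdk (midkine) was at 30.3, 17.1 and 24.2 against 70.0, 66.6, 67.6 and 69.2. The wild type values were nearly equal, yet the call (-1.52 ± 0.36, adjusted p = 0.0452) was lost without any library but germ-free replicate 1, with adjusted p-values of 0.0756 (without wild type replicate 3) to 0.207 (without germ-free replicate 2). All 3 genes lost their calls with only the 7 libraries or only those aged 2 months, and Pak6 and Mdk without the high-Mpo libraries.

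Histone genes of the Hist1 cluster on chromosome 13 moved in both directions, and these near-identical genes can share reads, so each value is uncertain. Hist1h4m was listed at 0 in all 3 germ-free libraries and at 73.4, 96.3, 47.7 and 87.8 in wild type ones (adjusted p = 2.99e-08). Hist1h2ap was at 4018, 5453 and 2902 against 11248, 14583, 10789 and 12823 (-1.62 ± 0.20, adjusted p = 2.67e-05), and Hist1h2bc at 343, 610 and 381 against 1431, 1088, 1657 and 1065 (-1.58 ± 0.26, adjusted p = 8.97e-04). Hist1h2ad rose, at 2902, 3928 and 2343 against 658, 585, 314 and 675 (2.48 ± 0.52, adjusted p = 0.0176), and lost its call without germ-free replicate 2 (0.105) or wild type replicate 3 (0.0610). Hist1h4i fell too, at 256, 314 and 286 against 514, 689, 527 and 491 (-0.95, adjusted p = 0.0270), and is named after its values were seen. Whether its call held in the other fits is not given. Without the high-Mpo libraries Hist1h2ap, Hist1h2bc and Hist1h2ad lost their calls. A list of 29 replication-dependent histones, which holds Hist1h2bc but not the other 4 genes, had a median of -0.26, and Hist1h2bc was the 1 member that passed the test.

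Heat shock chaperones had 1 fall and no rise among 20 members, against 0.301% of all genes falling, and a median of -0.16. Of the members, 5 lay wholly below the wild type range, against 3.74% of all genes. Their mean log2 level was 11.46, 11.81 and 11.32 in germ-free and 12.17, 12.25, 12.14 and 12.21 in wild type libraries, without overlap. Hspb1, a small heat shock protein, was at 48.0, 38.7 and 0.932 in germ-free and at 207, 309, 76.9 and 262 in wild type libraries. The difference was -3.62 ± 0.85 (adjusted p = 0.0438), and the call was lost without germ-free replicate 3 (0.287) or wild type replicate 1 (0.0856), 2 (0.122) or 4 (0.125), without the high-Mpo libraries, with only the 7 libraries and with only those aged 2 months. Hspa1a, an inducible member of the Hsp70 family that shares reads with Hspa1b, was at 813, 1382 and 749 against 3650, 16177, 3427 and 15282 and did not pass the test (-2.98 ± 0.96, adjusted p = 0.228). It is named after its values were seen. The libraries labelled IL1R1 KO had a mean Hspb1 of 2979 ± 2308 (SD, n = 3), above both groups.

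The receptors and pathways that detect microbes showed few differences. None of 28 microbial sensors passed the test in limma, with 4 higher and none lower at an unadjusted p below 0.05 and a median of 0.11. Over all genes, 1610 (9.49%) passed that unadjusted threshold, 738 higher and 872 lower. Tlr2, the receptor for bacterial lipoproteins, was at 675, 784 and 997 in germ-free and at 929, 880, 732 and 719 in wild type libraries. Tlr4, the receptor for lipopolysaccharide, was at 605, 925 and 468 against 543, 752, 567 and 527. Both overlapped, and neither Tlr2 (-0.0035 ± 0.19, adjusted p = 1.00) nor Tlr4 (0.11 ± 0.24, adjusted p = 0.933) passed the test. Tlr6, a partner of Tlr2, lay wholly above the wild type range, at 206, 291 and 236 against 74.4, 105, 147 and 141, without passing the test (1.10 ± 0.31, adjusted p = 0.129). It is named after its values were seen. Among 29 adaptors and kinases of these receptors, Sarm1 was the 1 gene that passed the test, and Myd88, the adaptor that most of the receptors share, was at 2256, 2479 and 1945 against 2774, 2579, 2216 and 2880 (-0.23 ± 0.12, adjusted p = 0.594).

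No member of the interleukin-1 family list (14 genes), the NF-kB list (27) or the type I interferon list (32) passed the test in limma. At an unadjusted p below 0.05 these lists had 1 higher and 0 lower, 0 higher and 3 lower, and 2 higher and 0 lower. Il1r1, the signalling interleukin-1 receptor, was at 218, 277 and 111 in germ-free and at 256, 142, 182 and 137 in wild type libraries (0.12 ± 0.30, adjusted p = 0.945). The libraries labelled IL1R1 KO had a mean of 231 ± 40.2 (SD, n = 3), against 179 ± 54.8 (n = 4) in the wild type ones, so the deposited level of Il1r1 was not lower under that label. Nfkbia, an inhibitor and target of NF-kB, was at 7973, 7892 and 7041 against 9937, 5770, 11882 and 5595 (adjusted p = 0.975). Irf7, a transcription factor of the interferon response, had a difference of 0.21 ± 0.22 (adjusted p = 0.836).

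Interferon gamma response and antigen presentation genes lay slightly higher, with none of 33 past the test in limma, 5 higher and none lower at an unadjusted p below 0.05, and a median of 0.12. The mean log2 level of that list was 12.14, 12.06 and 12.18 in the germ-free libraries and 12.01, 11.90, 11.92 and 11.91 in the wild type ones, which did not overlap. Its 7 members wholly above the wild type range, against 3.89% of all genes tested, were the class II genes Cd74, H2-Aa and H2-Eb1 and the interferon-induced GTPases Gbp4, Gbp5, Iigp1 and Tgtp2. Gbp5 had the smallest p among them, at 1135, 999 and 1359 against 578, 577, 703 and 808 (0.81 ± 0.22, adjusted p = 0.102). Without the high-Mpo libraries the median was 0.040. These 7 genes are named after their values were seen.

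Lymphoid priming genes had 1 rise and no fall among 25 members, against 0.301% of all genes in each direction, and a median of 0.47. Above 0 lay 21 members, against 8491 of all 16958 genes. The gene that passed was Ebf1, the transcription factor that commits progenitors to the B lineage, at 96.7, 18.0 and 348 in germ-free and at 1.23, 0, 16.6 and 0 in wild type libraries. Germ-free replicate 2 was close to wild type replicate 3. The call (5.11 ± 1.2, adjusted p = 0.0386) was lost without germ-free replicate 1 (0.11) or 3 (0.249), or wild type replicate 1 (0.0726), 2 (0.117) or 4 (0.128), without the high-Mpo libraries, with only the 7 libraries and with only those aged 2 months. Of 16 B cell markers, Ebf1 alone passed the test and 14 had differences above 0. Their mean log2 level was 7.75, 4.10 and 8.46 in germ-free replicates 1 to 3 and 4.38 to 5.81 in wild type libraries, so germ-free replicates 1 and 3 were above and replicate 2 below all wild type libraries. Igll1, Pax5 and Mzb1, genes of B lineage and antibody-secreting cells named after their values were seen, were at 0 in germ-free replicate 2, the library with the lowest Mpo. Without that library 3 of the 16 markers passed the test, and their median was 2.72, against 1.13 with it. Without the high-Mpo libraries, germ-free replicate 2 remained, and the medians were -0.12 for lymphoid priming and -0.49 for the B cell markers. The part of B lineage RNA in the Ebf1 result was not tested.

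**Figure D3:**
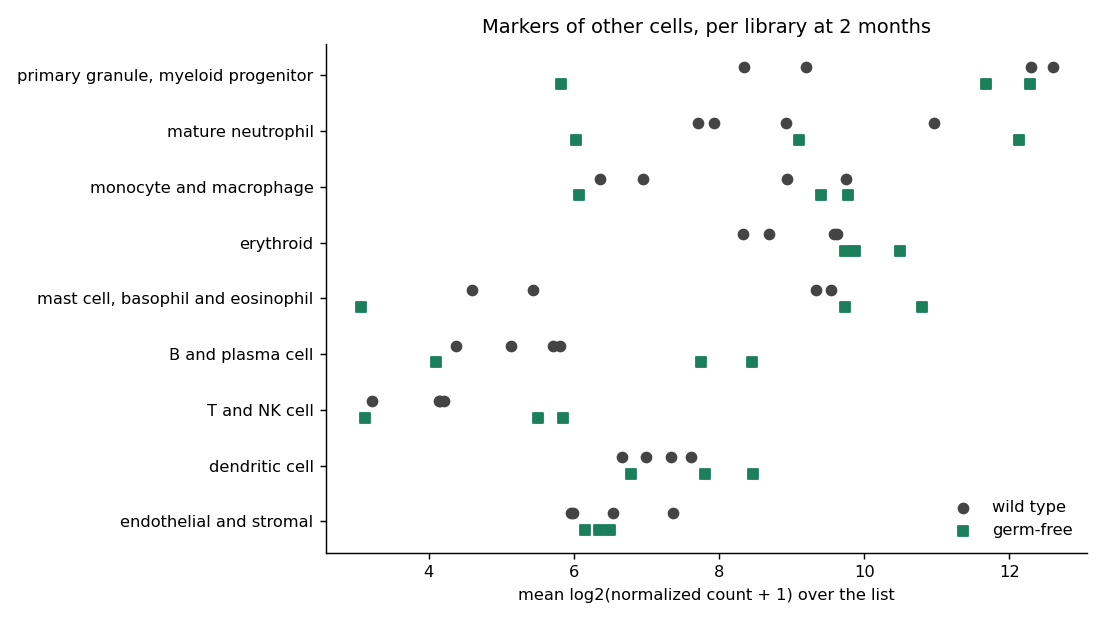
Mean log2(normalized count + 1) over lists of markers of other blood and marrow cells (rows), per library at 2 months. Circles are the 4 wild type and squares the 3 germ-free libraries. Granulocyte, monocyte, mast cell and B cell markers are lowest in the same germ-free library, and the erythroid squares, at 9.74 to 10.50, lie above the circles, at 8.32 to 9.63.

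Erythroid markers were higher as a list in the germ-free libraries. Their mean log2 level was 9.74, 9.88 and 10.50 against 8.69, 9.63, 8.32 and 9.59, without overlap. Above 0 lay 12 of 15, against 8491 of all 16958 genes, and none passed the test (4 higher and 1 lower at an unadjusted p below 0.05). With the erythroid level as a covariate the count of 102 genes was 61. Primary granule markers had a mean log2 level of 12.29, 5.82 and 11.68 against 8.34, 12.60, 9.20 and 12.30, with none of 10 past the test. Mature neutrophil markers did not follow that order, at 9.11, 6.03 and 12.14 against 8.93, 7.94, 10.96 and 7.72, with none of 14 past the test. Mpo had a difference of -1.61 ± 2.50 and Elane, neutrophil elastase, of -1.29 ± 2.42 (adjusted p = 0.904 and 0.923), and both spanned most of their range within each group. With a covariate for granule genes the count was 99. The part of these cells in the other results was not tested.

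No gene of the stem cell identity and cell cycle lists passed the test. Of 30 HSC identity genes, none passed in limma (0 higher and 2 lower at an unadjusted p below 0.05). Of these genes 4 lay wholly below the wild type libraries, against 3.74% of all genes, and 1 wholly above, against 3.89%. The mean log2 level of the list was 11.53 to 11.71 in germ-free and 11.62 to 11.70 in wild type libraries. Slamf1, the CD150 receptor, was at 1883, 1942 and 1977 against 2528, 2411, 2008 and 3037, without overlap (-0.35 ± 0.13, adjusted p = 0.324). Mecom and Hlf, transcription factors of long-term HSCs, had differences of -0.13 ± 0.14 and 0.047 ± 0.12 (adjusted p = 0.843 and 0.945). The progenitor markers did not pass either, with Flt3 at 815, 2338 and 1312 against 1140, 702, 1385 and 1039 and Cd34 at 5224, 7899 and 6087 against 7923, 5766, 8851 and 5416 (adjusted p = 0.822 and 0.892). Of 40 cell cycle genes none passed in limma, with 0 higher and 1 lower at an unadjusted p below 0.05, and Mki67, the proliferation marker, was at 3155, 3518 and 3908 against 2788, 3610, 3060 and 3447 (0.13 ± 0.18, adjusted p = 0.884).

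Some genes that changed lie close to each other in the genome. Of the 102, 35 started within 1 Mb of another, and of all genes tested 12.4% started within 1 Mb of one of the 102 other than themselves. No test of this difference was made. On chromosome 13, Lgals8 (chr13:12439415-12464944, GRCm38), a galectin, rose (4713, 5986 and 4811 against 2662, 2006, 2662 and 2780, adjusted p = 1.05e-04), as did Gpr137b (chr13:13357620-13394014) and Gm18562 (chr13:13323364-13350427). Between them Gpr137b-ps (chr13:12615057-12650388) fell (83.9, 193 and 84.1 against 444, 582, 734 and 769, adjusted p = 2.79e-06). Gpr137b and Gpr137b-ps are near copies that went in opposite directions, and reads could be divided between them. Gm18562 was listed at 0 in all wild type libraries and lost its call without 1 library in 4 of the 7 cases, with adjusted p-values of up to 0.137 (without germ-free replicate 2). Gpr137b-ps and Gm18562 lost their calls without the high-Mpo libraries, and Gm18562 also with only the 7 libraries or only those aged 2 months.

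On chromosome 14, Entpd4, a Golgi nucleotidase, and Gm16867, which overlaps it on the opposite strand, fell together. Entpd4 was at 1584, 2083 and 1880 in germ-free and at 4858, 3229, 4189 and 4220 in wild type libraries (-1.15 ± 0.16, adjusted p = 1.19e-04), and Gm16867 at 34.5, 44.4 and 19.0 against 717, 418, 563 and 825 (adjusted p = 7.0e-05). The library protocol does not mark strand, so reads from their overlap cannot be assigned to either gene. Entpd4 and Wdfy1, an endosomal protein that takes part in Toll-like receptor signalling, are among 7 genes listed here because they vary between C57BL/6 substrains or colonies. Wdfy1 rose, at 2799, 3418 and 2748 against 1400, 1237, 1639 and 1099 (1.16 ± 0.17, adjusted p = 1.19e-04), and the other 5 listed genes did not pass. Gm16867 lost its call without the high-Mpo libraries, and Entpd4 and Wdfy1 did not.

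On chromosome 17, Dynlt1b (chr17:6430112-6436296), a dynein light chain, rose (2772, 2622 and 3006 against 1563, 1654, 1360 and 1759, adjusted p = 8.73e-04), as did the neighbouring copies Tmem181b-ps and Tmem181c-ps. On chromosome 2, Serinc3, a membrane protein, rose (71047, 75468 and 72377 against 48708, 32515, 41393 and 35523, adjusted p = 3.52e-05) within 1 Mb of Rbpjl, which fell. For several of these genes the libraries labelled IL1R1 KO at 2 months lay near the germ-free mean. Their means, with germ-free and wild type means in that order, were 1996 for Entpd4 (1849 and 4124), 27.4 for Gm16867 (32.6 and 631), 67732 for Serinc3 (72964 and 39535), 2523 for Dynlt1b (2800 and 1584) and 4566 for Tmem181b-ps (4682 and 2646). For others they lay near the wild type mean, with 3904 for Sult1a1 (9230 and 4330), 130 for Cxcr4 (757 and 157) and 1636 for Dhcr7 (465 and 1611). Both comparisons use the same wild type libraries, so these values are given side by side only. Genes of this and the preceding paragraphs outside the named set (Lgals8, Gpr137b-ps, Gm18562, Gm16867, Dynlt1b, both Tmem181 copies and Serinc3) were chosen after their values were seen. Tmem181c-ps lost its call without germ-free replicate 3 (adjusted p = 0.0689), with only the 7 libraries and with only those aged 2 months. Dynlt1b and Tmem181c-ps lost theirs without the high-Mpo libraries.

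The libraries taken at 1 year, which share none with those at 2 months, were compared in the same model, which shares 1 estimate of the spread. Of the 102 genes, 94 had the same sign at 1 year, against 9903 of all 16958 genes tested, and 51 passed the test at 1 year in the same direction, where 4.96% of all genes (841) passed. None passed in the opposite direction. Leaving out each of the 7 libraries aged 1 year gave 90 to 95 genes of the same sign and 25 to 56 past the test. The lowest count, 25, came without germ-free 1 year replicate 1, where 150 genes in all (0.885%) passed. Markers of other cells also differed at 1 year. Of 15 erythroid markers 7 were past the test and higher, against 310 of all 16958 genes. Their median was 2.77, and their mean log2 level was 9.43 and 10.58 in the germ-free and 6.55 to 8.42 in the wild type libraries. Mature neutrophil markers had a median of 3.37, with none of 14 higher and 1 lower past the test, and a mean log2 level of 6.91 and 7.51 against 2.58 to 6.39. The part of these cells in the values at 1 year was not tested.

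Cxcr4 averaged 429 in the 2 germ-free and 125 ± 42.6 (SD, n = 5) in the wild type libraries at 1 year (1.86 ± 0.37 SE, adjusted p = 0.00513). Tsc22d3 averaged 32122 against 14328 ± 1196 (1.17 ± 0.24, adjusted p = 0.00605), Fkbp5 1645 against 664 ± 157 (1.34 ± 0.23) and Pik3ip1 17650 against 10498 ± 220 (0.75 ± 0.11). The glucocorticoid genes so included 3 that passed at both ages, while Zbtb16 did not pass at 1 year (0.93 ± 0.47, adjusted p = 0.265). The median of the glucocorticoid list at 1 year was 0.19. Its mean log2 level overlapped, at 11.09 and 10.99 in germ-free and 10.62 to 11.01 in wild type libraries. Dhcr7 averaged 600 against 1808 ± 195 (-1.61 ± 0.25, adjusted p = 3.99e-04). The sterol list had a median of -0.50 with 5 falls among 24 members, against 531 of all 16958 genes. Selp averaged 6983 against 15176 ± 2226, and its difference of -1.11 ± 0.20 (adjusted p = 0.00155) stood beside -1.30 at 2 months, with levels far above those of the young animals in both groups.

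Other genes did not pass the test at 1 year, which with 2 germ-free libraries does not show that their differences were lost. Rbpjl averaged 474 in germ-free and 929 ± 133 in wild type libraries at 1 year (-0.97 ± 0.63, adjusted p = 0.408), and Plek 3106 against 3207 ± 398 (-0.12 ± 0.27, adjusted p = 0.852). Genes with opposite signs at the 2 ages were Itgb3, Mdk, Ghdc, Trim14, Serpina3g, Ier5l, Ddx43 and AC149090.1, all but Mdk named after their values were seen, and the 1-year difference of none of them passed. The test of the change in the difference between the ages passed for no gene in limma, with 1794 at an unadjusted p below 0.05, among them 35 of the 102. Without germ-free 1 year replicate 2 it passed for 59 genes.

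**Figure D4:**
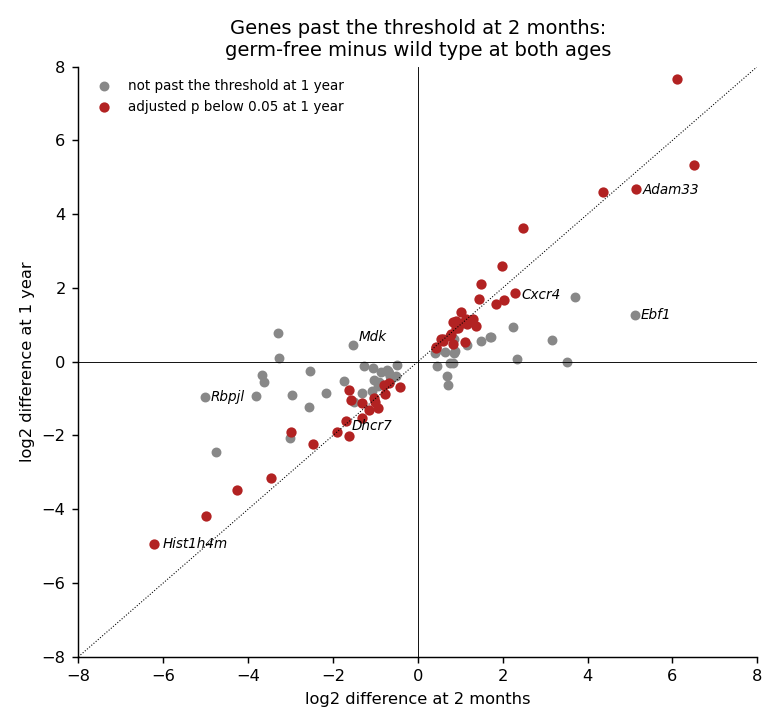
Log2 differences (germ-free minus wild type) of the 102 genes at 2 months (horizontal) and at 1 year (vertical). Red points, 51 genes, also passed the test at 1 year, and the dotted line marks equal differences. Most points share their sign at the 2 ages, with Rbpjl and Ebf1 closer to 0 at 1 year and Mdk of opposite sign.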

How the data were processed

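RNA of sorted HSCs was amplified by Smart-seq2 and sequenced on 1 end with reads of 100 bases, per the labels' protocols. Smart-seq2 does not mark strand, so overlapping antisense genes cannot be told apart. The deposited values are the authors' normalized counts per gene, a signal scale without whole reads. The submitters' processing notes name FastQC 0.11.9, cutadapt 2.10, Salmon 1.2.0.0, DESeq2 1.26.0 and the build GRCm38 (mm10). Between 4.77% and 13.1% of low values in the 7 libraries were whole multiples of 1 read (tolerance 0.001), so reads could not be recovered and no count model was used.

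Values entered limma 3.58.1 (R 4.3.3) as log2(normalized count + 1). Genes with at least 10 in at least 3 of 30 libraries were kept. The model had a mean for each of 8 groups over all 30 libraries, which share 1 estimate of the spread, with trend and robust options of eBayes on. All tests were two-sided, with Benjamini-Hochberg adjustment over 16958 genes. The script was tested on simulated data. Tables and figures used Python 3.11.15, pandas 2.3.3, numpy 2.4.6 and matplotlib 3.10.9. Positions and gene types came from GENCODE M21, and promoter windows from RefSeq.

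Named genes were, in each direction, the 12 with the greatest change among genes past the threshold with no overlap of libraries and a group mean of 50 or more (pseudogenes and unnamed genes left out), up to 4 passing members of each of 37 lists by smallest p, and 18 fixed genes. A few genes are not reported here. The members and lists were chosen with earlier results of these data known. The title and the age label of IL1R1 KO replicate 1 at 1 year differ. It was kept at 1 year, and the other placement was an alternative. Same-numbered libraries of the 2 groups did not deviate together (correlations of -0.105, -0.11 and 0.0053 across genes), so the numbers were not used as pairs.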

Additional observations from a re-analysis of the deposited data

Results flagged for a closer look

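In groups of 4, a library was flagged where its gap to the nearest other library, over the range of the group, exceeded Dixon's 95% critical value. This was examined for 116 sets of values in the wild type libraries aged 2 months, and 5 were flagged. Chance flags about 1 in 20 groups. Rbpjl was at 25.4 in wild type replicate 1 and between 81.0 and 90.0 in the others. Selp was at 3275 in wild type replicate 4 and between 1968 and 2038 in the others. Lgals8 was at 2006 in wild type replicate 2 and between 2662 and 2780 in the others. The mean log2 level of the interferon gamma and antigen presentation list was 12.01 in wild type replicate 1 and 11.90 to 11.92 in the others, and that of the T and NK cell markers was 3.217 in wild type replicate 2 and 4.137 to 4.209 in the others.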

How the results depend on the processing

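All 102 genes kept their sign under every alternative in which they were tested. The count of 102 (51 higher, 51 lower) was 37 (25, 12) with only the 2 groups compared, 43 (28, 15) with only the 2-month libraries, 56 (24, 32) with array quality weights, 61 (30, 31) with the erythroid covariate and 173 (29, 144) without the 6 high-Mpo libraries. It stayed within 1.5 times with pseudocounts of 10 (96) and 0.1 (94), a minimum value of 50 (99), no filter (114), quantile (109) or upper quartile scaling (105), the other covariates and the plain empirical Bayes fit (86). With the replicate block it was 73, and the same numbers do not pair the libraries. Leaving out 1 library gave 67 to 109 genes, 27 to 52 higher and 37 to 65 lower. At 1 year the count of 841 ran from 150 to 1221 without 1 library, and the change between ages, 0 genes, from 0 to 59. Of 38 named genes past the threshold, 19 stayed past it without each of the 7 libraries. The fits with only 2 groups or only 2-month libraries hold fewer libraries by construction. For the other counts that moved, the cause was not tested. Depth limits genes near 0, and 2 germ-free libraries at 1 year limit that comparison.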
